A study of Mus musculus with 46 samples.

Results

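The genes of classical MHC class I presentation were examined in MC-38 tumors and in the cultured cells they were grown from. There are 9 of them among the 48795 genes of the expression table, chosen by name for their textbook roles, with earlier results of these data known. They are the heavy chains H2-K1 and H2-D1, their partner B2m, the peptide transporter subunits Tap1 and Tap2, the loading factors Tapbp and Calr, the peptidase Erap1 and the transcriptional activator Nlrc5. MC-38 is a mouse colon carcinoma line that grows in C57BL/6 mice. Bulk total RNA of whole tumors was sequenced, so fewer cells of a type and less RNA per cell cannot be told apart. In the first experiment, female WT C57/BL6NTac mice of 8 to 10 weeks carried subcutaneous MC-38 tumors and received the anti-mouse PD-1 Ab muDX400 (5 mg/kg, intraperitoneal) or an isotype control. Tumors were labelled as taken at day 4 after 1 dose and at day 8 after 2 doses, with 5 tumors in each of these 4 groups. There were also 3 baseline tumors and 3 samples of the cell line in culture. They are counted with the first experiment here, though no label says so. Identifiers of the cultures, baseline tumors, day 4 tumors and day 8 tumors form separate series. In the second experiment, 10 tumors came from PD-1cKO mice and 10 from WT littermates, labelled day 28. The study counts these tumors in days after implant. Its table and a figure legend give day 28 for the PD-1cKO tumors, while its methods give an earlier day. For the antibody tumors it gives later days than 4 and 8, so those labels do not count from implant. PD-1cKO mice carry Pdcd1 fl/fl with exons 2 and 3 flanked by loxP sites and creERT2 at the ROSA26 locus, which is active in most cell types. Both PD-1cKO mice and littermates received tamoxifen on 5 consecutive days. The tumor cells themselves carry no deletion. In all, 46 samples in 8 groups were compared.

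MHC class I molecules show peptides from inside the cell to CD8 T cells. Peptides made by the proteasome are carried into the endoplasmic reticulum by the Tap1 and Tap2 transporter and trimmed by Erap1. There they are loaded onto a heavy chain bound to B2m, with the help of Tapbp (tapasin) and of Calr (calreticulin), a lectin chaperone that also folds many other glycoproteins. IFNγ is the classical inducer of the pathway, and Nlrc5 is the activator that binds the promoters of class I genes through a multiprotein complex on a conserved upstream module.

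On the GRCm38 build, 5 members lie on chromosome 17 within or beside the MHC. H2-K1 (ENSMUSG00000061232) spans 33996017 to 34000347 on the minus strand and H2-D1 (ENSMUSG00000073411) 35262730 to 35267499 on the plus strand. Tapbp lies at 33915899 to 33929292, Tap1 at 34187553 to 34197225 and Tap2 at 34203527 to 34216321, all on the plus strand. The other members lie outside the MHC. B2m is on chromosome 2 at 122147686 to 122153083, Erap1 on chromosome 13 at 74639568 to 74693201, Calr on chromosome 8 at 84841850 to 84846934 on the minus strand, and Nlrc5 on chromosome 8 at 94434356 to 94527272. All 9 are protein coding, and their FPKM summarises all exons of a gene. The heavy chains resemble their neighbors. Transcript stretches of 50 bases were matched against all other genes. For H2-K1 9.63% of them had a match elsewhere and for H2-D1 12.8%. The share was 2.87% for Tapbp and under 1% for the other 6, and the heavy chain values are the less certain for it. By gene span, B2m overlaps Patl2 by 5398 bases on the other strand, and Tapbp overlaps Zbtb22 by 3422 bases on the same strand. The effect of these overlaps on the values was not tested.

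The promoters are shown because the heavy chains and B2m are the genes whose products form the surface complex. The 250 bases before the start site of H2-K1 (chr17:34000348-34000597, minus strand) and of B2m (chr2:122147437-122147686, plus strand) are given 5′ to 3′ from RefSeq on GRCm38.p6. Capitals mark every match to a searched motif.

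H2-K1: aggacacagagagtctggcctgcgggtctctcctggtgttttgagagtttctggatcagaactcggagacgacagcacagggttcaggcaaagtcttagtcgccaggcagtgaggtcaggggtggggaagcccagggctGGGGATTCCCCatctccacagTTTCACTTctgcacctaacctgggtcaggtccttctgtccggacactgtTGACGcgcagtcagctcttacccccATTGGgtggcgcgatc

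B2m: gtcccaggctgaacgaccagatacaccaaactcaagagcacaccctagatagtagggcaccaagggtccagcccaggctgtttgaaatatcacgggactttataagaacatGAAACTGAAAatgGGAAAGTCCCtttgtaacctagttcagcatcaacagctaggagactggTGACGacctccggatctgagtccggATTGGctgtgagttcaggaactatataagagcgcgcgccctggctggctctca

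The motifs were searched on both strands. They were the interferon-stimulated response element as GAAA-NN-GAAA, the shorter IRF core as AANNGAAA that overlaps it, the GAS element as TTCNNNGAA, the CCAAT box, the CRE core TGACG, and the NF-kB consensus by its name. A stretch from the NF-kB match to the IRF core of H2-K1 lay at chr17:34000430-34000458 (minus strand), and its counterpart at H2-D1 lay at chr17:35262923-35262951 (plus strand). At B2m the stretch from the interferon-stimulated response element to the NF-kB match lay at chr2:122147548-122147570 (plus strand). They are set side by side because the same 2 kinds of match stood close together in all 3 genes.

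H2-K1: GGGGATTCCCCatctccacagTTTCACTT

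H2-D1: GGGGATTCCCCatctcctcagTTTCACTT

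B2m: GAAACTGAAAatgGGAAAGTCCC

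Upstream of H2-K1 and H2-D1, 166 of 190 aligned bases were identical (87.4%). Each of these 3 genes also held a TGACG and a CCAAT match downstream of the stretch. Promoter sequence was given for 7 of the 9 members, without Tap2 and Nlrc5. The counts below also cover bases past the start site, which are not printed above. They count H2-K1 and H2-D1 as 2 members, though these are much alike upstream. The CCAAT box was found in 6 of 7, against 37.4% of 32851 promoters of the same length, and TGACG in 4 of 7 against 20.8%. The IRF core was found in 5 of 7 against 23.9% and the NF-kB consensus in 4 of 7 against 8.46%. The interferon-stimulated response element was found in 2 of 7 (B2m and Erap1) against 3.44%. The Erap1 matches crossed its start site, at -4 to 3 for the IRF core and at -4 to 5 for the element. The GAS letters were in none of the 7 and in 8.3% of all promoters. A match describes these letters in this window and is not a measured site.

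Some libraries stood apart, and these values bear on the results. In isotype control day 4 replicate 1, 54.6% of the FPKM were of mitochondrial genes, and its median-of-ratios factor was 0.438, and all 9 members had their lowest FPKM of the group there. Short noncoding RNAs took 30.2% to 66.5% of the FPKM in the second experiment and at most 0.0817% in the first, so levels were not tested across experiments. Read depth cannot be recovered from FPKM. Gene-level Pdcd1 averaged 9.61 FPKM (SD 4.51, n = 10) in PD-1cKO and 3.30 (SD 1.46, n = 10) in WT tumors. Only part of the gene is deleted, so this value does not check the label. Of 7 T-cell markers 5 were at 0 in all 3 cultures, Ifng was at 0 in all 3, and the summed leukocyte markers Ptprc, Laptm5 and Coro1a reached at most 0.413 FPKM there against 44.6 or more in every tumor. The epithelial markers Krt8, Krt18, Epcam and Cdh1 summed to only 0.572 to 0.742 FPKM in the cultures, low for cells labelled as a carcinoma line. No 2 samples were identical.

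Cultured cells against tumors. The heavy chains, B2m, Tap1, Tap2, Tapbp and Nlrc5 were lower in the cells in culture than in isotype control tumors of the same line, while Calr and Erap1 did not pass. H2-K1 was at 191.3, 185.9 and 180.4 FPKM in the cultures and at 1332, 1385, 2279, 1759 and 1745 in isotype control tumors at day 8. Every tumor was far above every culture. The difference was 3.17 on the log2(FPKM + 0.1) scale, where a fold change is stated throughout, or 8.97-fold (SE 0.17, limma adjusted p 4.85e-07). H2-D1 differed by 3.16 (SE 0.18) and B2m by 2.69 (SE 0.12). Per length, B2m had the highest mean of the 9 in these tumors, while in the cultures Calr had it, at 588.4 to 632.3 FPKM against 426.9 to 434.4 for B2m.

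Tap1 and Nlrc5 were the members with the largest differences. Tap1 was at 8.36, 8.03 and 7.97 FPKM in the cultures and between 78.2 and 141.1 in the 5 tumors, a log2 difference of 3.74 (SE 0.19, limma adjusted p 3.26e-07). Nlrc5 was at 1.84, 2.10 and 2.10 FPKM and between 16.1 and 33.3, a difference of 3.52 (SE 0.20, limma adjusted p 7.08e-07). Tap2, the partner of Tap1 in the transporter, differed less, by 1.89 (SE 0.18), and Tapbp by 1.51 (SE 0.14). Calr was at 632.3, 625.2 and 588.4 FPKM in the cultures and 655.7 to 787.3 in the tumors, with a log2 difference of 0.23 that did not pass (limma adjusted p 0.0791). For Erap1 the difference was 0.47 (limma adjusted p 0.0228), also not past the limit. A gene passed at an adjusted p under 0.01 and at least 1.2-fold.

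In all, 7 of 9 members were higher in isotype control tumors at day 8 and 0 lower, where 20.2% of 15199 tested genes were higher and 16.8% lower. Complete separation, with every tumor above every culture, was seen in 8 of 9 members and in 26.3% of tested genes. The members' median was 2.69, against -0.11 for all genes tested. Of the members, 8 of 9 were higher in the 3 baseline tumors, where 20.4% of genes were higher and 17.8% lower. Nlrc5 was at 48.8, 53.2 and 44.1 FPKM at baseline, 4.53 above the cultures on the log2 scale (SE 0.10), and Erap1 rose there too, by 1.05 (SE 0.06, limma adjusted p 1.16e-05). Both comparisons use the same 3 cultures. Cultures and tumors have identifiers from separate series, so any difference in processing cannot be told apart from culture against tumor. The tumors also held cells absent from culture. The 6 macrophage markers summed to 934 to 1270 FPKM in isotype control tumors at day 8 and to 2.64 to 3.27 in the cultures, where 3 of the 6 were at 0. The part of such cells in the class I difference was not tested.

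**Figure D1:**
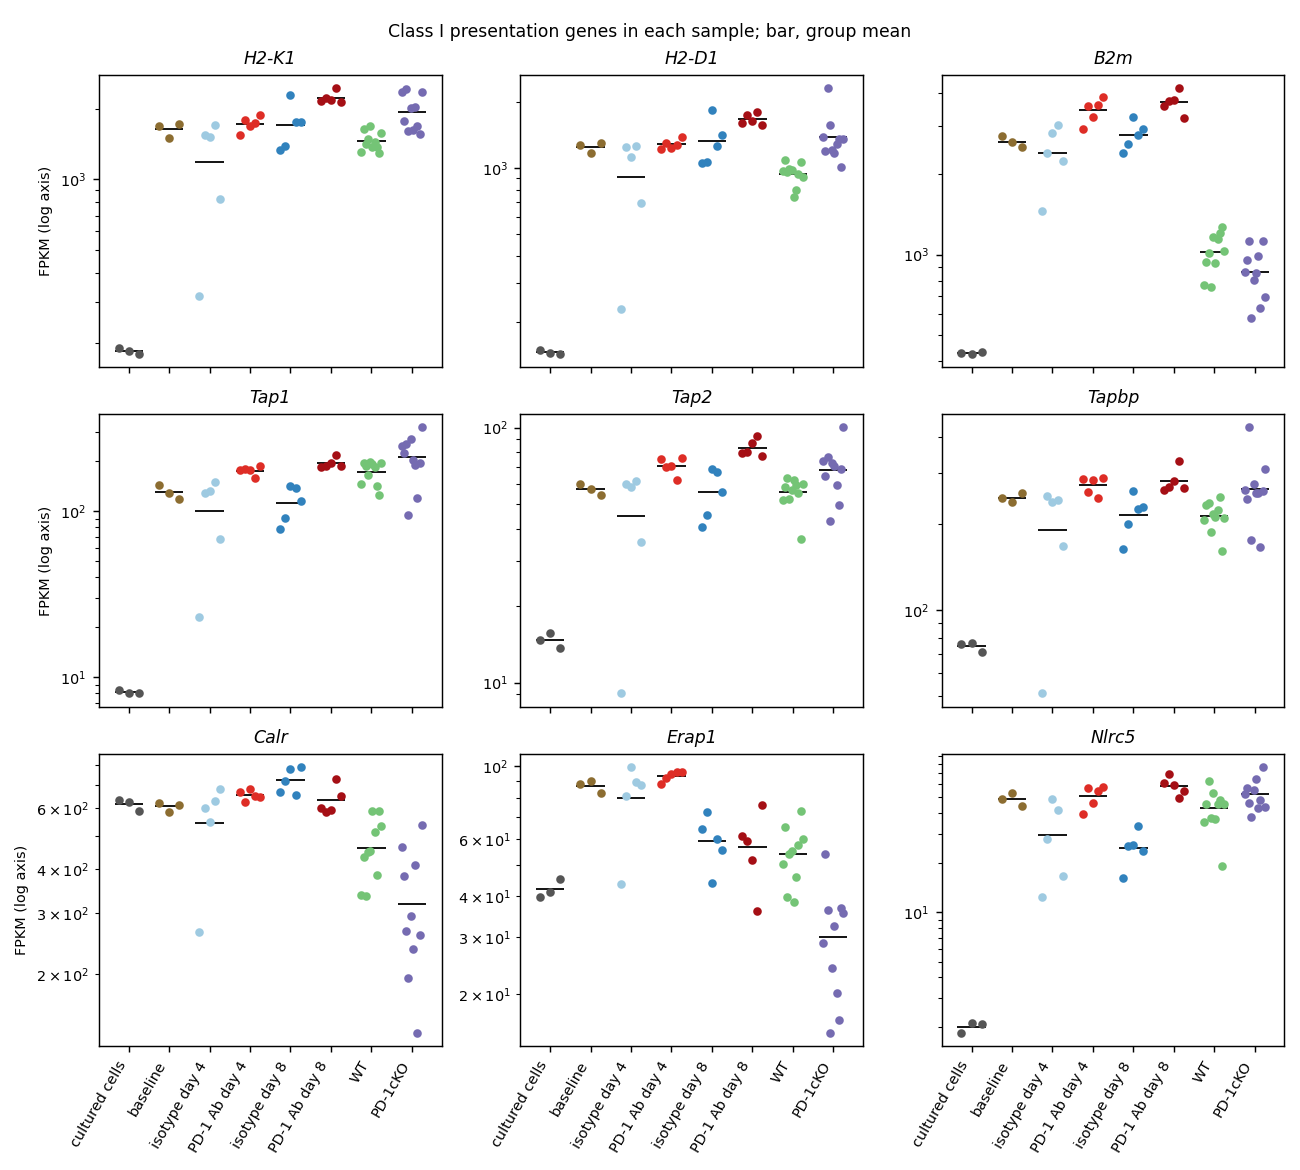
FPKM (log axis) of the 9 members in every sample, 1 panel a gene, with each group's mean as a bar. The 3 cultures sit far below the tumors for H2-K1 (180.4 to 191.3), Tap1 (7.97 to 8.36) and Nlrc5 (1.84 to 2.10), while Calr (588.4 to 632.3) sits among them.

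PD-1 Ab against isotype control, day 8. This comparison asks what PD-1 blockade changed in the tumors after 2 doses. Nlrc5 and Tap1 rose. Nlrc5 was at 61.0, 69.7, 59.3, 49.3 and 55.1 FPKM with PD-1 Ab and at 16.1, 25.2, 25.8, 33.3 and 23.5 with isotype control. The groups did not overlap, and the difference was 1.28 on the log2 scale or 2.42-fold (SE 0.17, limma adjusted p 0.00101). Tap1 was at 184.4, 187.8, 194.4, 219.1 and 188.7 FPKM against 78.2, 90.7, 141.1, 137.8 and 114.6. It too was separated completely, with a difference of 0.83 or 1.77-fold (SE 0.16, limma adjusted p 0.00455). The call on Tap1 is close to the limit. Without any 1 of PD-1 Ab replicates 1 to 4 or of isotype control replicates 2 and 5, the difference was 0.76 to 0.85 with an adjusted p of 0.0114 to 0.0153.

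Tap2 and Tapbp were also completely separated but did not pass. Tap2 was at 77.1 to 93.0 FPKM against 40.8 to 69.0 (0.61, SE 0.15, limma adjusted p 0.0132), and at 0.69 with an adjusted p of 0.00804 without isotype control replicate 3, the highest control. Tapbp was at 262.9 to 330.9 FPKM against 163.5 to 259.1 (0.40, SE 0.13, limma adjusted p 0.0363). The heavy chains had log2 differences of 0.42 (SE 0.15) for H2-K1 and 0.37 (SE 0.16) for H2-D1, with limma adjusted p of 0.0656 and 0.101. B2m differed by 0.41 (SE 0.13, limma adjusted p 0.0439). The isotype control tumors spread widely for the heavy chains. H2-K1 was at 1332, 1385, 2279, 1759 and 1745 FPKM with isotype control and at 2145, 2223, 2176, 2450 and 2142 with PD-1 Ab, and control replicate 3 alone lay inside the treated range. Calr and Erap1 lay on the other side of 0, at -0.19 (limma adjusted p 0.182) and -0.08 (0.777).

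At this time 2 of 9 members were higher and 0 lower, where 6.69% of 15062 tested genes were higher and 1.56% lower. Complete separation with PD-1 Ab above was seen in 4 members, and in 9.23% of tested genes. The members' median was 0.41, against -0.04 for all genes. All 7 T-cell markers and all 6 macrophage markers were higher in the same tumors. The T-cell markers summed to 39.0 to 164.5 FPKM with PD-1 Ab and to 8.61 to 19.1 with isotype control, and the macrophage markers to 1539 to 4038 against 934 to 1270. Ifng, the gene of IFNγ, averaged 8.23 FPKM (SD 2.83, n = 5) against 1.42 (SD 0.70, n = 5) and rose by 2.52 (SE 0.34, limma adjusted p 0.00106). Their part in the rise of Nlrc5 and Tap1 was not tested.

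PD-1 Ab against isotype control, day 4. After 1 dose no member passed, and no gene of 14556 did: limma called 0.0% of genes as higher and 0.0% as lower, with 895 genes and 3 members (B2m, Tap1, Nlrc5) at an unadjusted p under 0.05. All 9 differences were above 0. Tap1 was at 177.2, 179.4, 177.5, 158.2 and 187.4 FPKM with PD-1 Ab and at 23.1, 128.8, 133.2, 149.6 and 67.9 with isotype control. The groups did not overlap, and Tap2 was separated as well, where 3.59% of tested genes were. The log2 difference was 1.07 for Tap1 (SE 0.43, limma adjusted p 0.726) and 0.93 for Tap2 (SE 0.45, limma adjusted p 0.825).

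The control group holds the mitochondria-rich replicate 1, and the median of all genes was 0.26 above 0 (0.01 after median-of-ratios scaling). Scaled in that way the members' median was 0.47 instead of 0.73. Without this replicate the difference was 0.61 for Tap1 (limma adjusted p 0.143), 0.70 for Nlrc5 (0.228), 0.42 for Tap2 (0.191), 0.40 for B2m (0.115) and 0.36 for H2-K1 (0.353). For Calr it was 0.09 and for Erap1 0.07. Control replicate 5 was also low in the heavy chains, with H2-K1 at 825.2 FPKM against 1506 to 1699 in replicates 2 to 4. At day 4 Ifng averaged 5.04 FPKM (SD 1.53, n = 5) against 1.11 (SD 0.92, n = 5), which did not pass (limma adjusted p 0.236).

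PD-1cKO against WT, day 28. This comparison asks what the deletion of Pdcd1 in the host changed. H2-D1 was higher and Erap1 lower in tumors of PD-1cKO mice. H2-D1 ran from 1017 to 2328 FPKM (median 1327) in 10 PD-1cKO tumors and from 736.3 to 1096 (median 965) in 10 WT tumors, and 9 of 10 PD-1cKO tumors were above every WT tumor. The difference was 0.53 on the log2 scale or 1.45-fold (SE 0.14, limma adjusted p 0.00593). Erap1 ran from 15.2 to 54.0 FPKM (median 30.6) against 38.3 to 73.1 (median 54.5), with 9 of 10 PD-1cKO tumors below every WT tumor. It fell by 0.92 on the log2 scale, to 0.530 of the WT level (SE 0.19, limma adjusted p 0.00208).

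H2-K1 ran from 1559 to 2422 FPKM (median 1890) against 1287 to 1685 (median 1426), with 6 of 10 above every WT tumor. Its difference of 0.40 (SE 0.13) had a limma adjusted p of 0.0166, and of 0.00821 at 0.56 after median-of-ratios scaling. The median of all genes was -0.20 in the deposited values and -0.04 after that scaling. Scaled so, Tap2 was at 0.43 (limma adjusted p 0.0126), Tapbp at 0.43 (0.0188) and Nlrc5 at 0.48 (0.0114). Both calls stayed under that scaling, with H2-D1 larger at 0.69 (limma adjusted p 0.0038) and Erap1 smaller at -0.75 (0.00308). The call on H2-D1 was lost without any 1 of PD-1cKO replicates 4 and 7 or WT replicates 6, 7 and 10 (0.49 to 0.54, adjusted p 0.01002 to 0.0129). Calr ran from 135.6 to 536.1 FPKM (median 279.5) against 335.1 to 589.5 (median 451.8). Its difference was -0.62 (SE 0.21, limma adjusted p 0.0211), and -0.72 with an adjusted p of 0.00806 without PD-1cKO replicate 10, the tumor with the most Calr. After median-of-ratios scaling it was -0.46 (limma adjusted p 0.0926), and B2m was at -0.10 (0.593). For Tap1 the difference was 0.23 (limma adjusted p 0.292), for Tap2 0.27 (0.106), for Tapbp 0.27 (0.123), for Nlrc5 0.32 (0.129) and for B2m -0.26 (0.153). PD-1cKO tumors varied more than WT tumors in the transporter, with Tap1 from 94.9 to 320.4 FPKM against 125.1 to 197.3.

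Of 9 members 1 was higher and 1 lower, where 8.78% of 15075 tested genes were higher and 12.6% lower, so the number of calls is near the background. The members' median was 0.27, and 0.43 after median-of-ratios scaling. Sample identifiers fall into 3 runs, 1 of them with 7 PD-1cKO and no WT tumors, another with 9 WT and 1 PD-1cKO, and the last with 1 WT and 2 PD-1cKO. With the run as a covariate limma called 0 genes and 0 members, at 0.46 for H2-D1 (adjusted p 0.166), -1.25 for Erap1 (0.0257) and -1.21 for Calr (0.0265). In the run of 9 WT tumors the lone PD-1cKO tumor had 1358 FPKM of H2-D1 against 736.3 to 1096, 16.7 of Erap1 against 38.3 to 73.1 and 135.6 of Calr against 335.1 to 589.5. In the last run the 2 PD-1cKO tumors had 1017 and 1365 FPKM of H2-D1 against 909.9 in the WT tumor, and 35.6 and 36.8 of Erap1 against 59.9. Calr was at 259.8 and 536.1 there against 534.4, so 1 of these 2 was not lower. Markers moved with the genotype as well. The T-cell markers summed to 27.8 to 126.6 FPKM in PD-1cKO and 11.2 to 43.4 in WT tumors (7 of 7 higher), the macrophage markers to 1388 to 4769 against 834 to 1465 (5 of 6 higher), and the fibroblast markers to 2224 to 12350 against 1064 to 2266 (3 of 5 higher). Their part in the differences of H2-D1 and Erap1 was not tested.

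**Figure D2:**
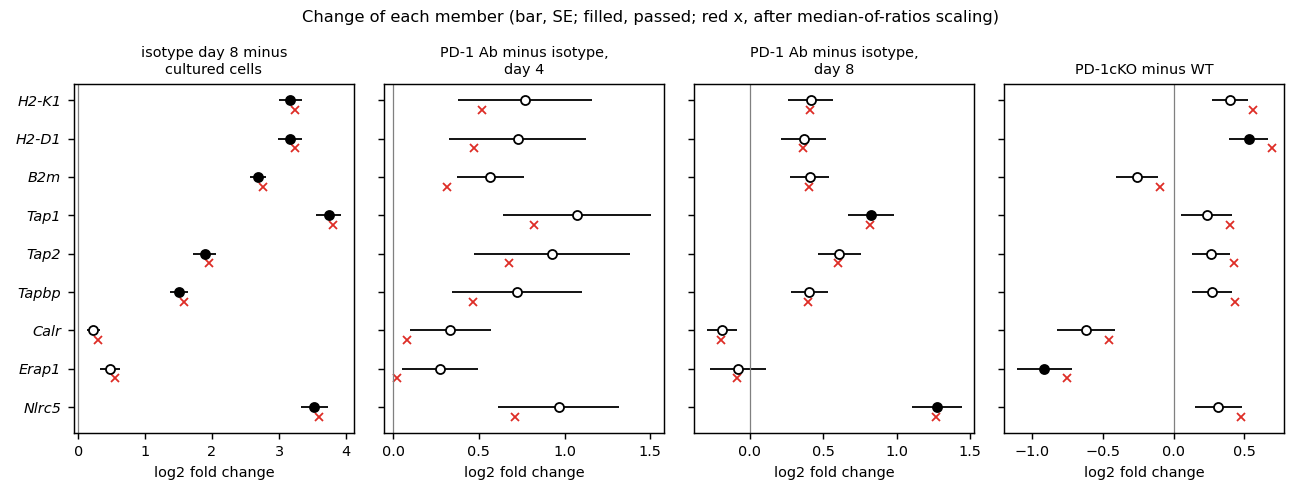
Log2 differences of the 9 members in the comparisons, with standard errors from limma as bars and calls marked. Nlrc5 (1.28) and Tap1 (0.83) lead with PD-1 Ab at day 8, while Erap1 (-0.92) and H2-D1 (0.53) are the 2 calls in PD-1cKO tumors.

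Difference between the responses. The PD-1 Ab response at day 8 minus the PD-1cKO response was tested as 1 contrast. No member passed, with 0.0853% of 16404 genes called as higher and 0.0122% as lower. At an unadjusted p under 0.05 were 4 members and 2585 genes. Nlrc5 was at 0.96 (SE 0.27, limma adjusted p 0.0974), B2m at 0.67 (SE 0.23, limma adjusted p 0.183), Erap1 at 0.83 (SE 0.32, limma adjusted p 0.216) and Tap1 at 0.59 (SE 0.29, limma adjusted p 0.313). For the heavy chains the values were 0.02 (SE 0.21) for H2-K1 and -0.17 (SE 0.23) for H2-D1. The median of all genes was 0.23 and became 0.03 with median-of-ratios scaling, under which H2-K1 turned to -0.20 and Nlrc5 was at 0.74. The 2 experiments differ in time, library composition and controls, which cannot be told apart from the treatment. The response at day 8 minus that at day 4 gave no call for members or genes (0.0% higher and 0.0% lower of 15289, 1182 genes and 0 members at an unadjusted p under 0.05 by limma). Nlrc5 was at 0.31 (SE 0.41) and Calr at -0.53 (SE 0.26, limma adjusted p 0.623).

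Ratios between members within a sample. A ratio of 2 genes in the same sample does not depend on how the sample was scaled. Here 0.1 FPKM was added to both genes, which matters little except at low values such as Nlrc5 in the cultures. In all, 6 ratios were tested in 4 comparisons, with p-values adjusted over all 24. Of these, 11 passed at an adjusted p under 0.05. The ratio of the heavy chains was the only one of the 6 that passed in no comparison. H2-D1/H2-K1 had group medians of 0.666 to 0.798 in the 8 groups (adjusted p 0.394 to 0.946, exact or 100000-resample permutation tests, 2-sided). In single tumors the ratio ran from 0.5785 to 0.9817 in PD-1cKO and from 0.5366 to 0.828 in WT. In the cultures it was 0.777 to 0.791 and in isotype control tumors at day 8 it was 0.717 to 0.811, while the level was 8.97-fold higher in the tumors for H2-K1 and 8.94-fold for H2-D1.

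The chaperone Calr was lower relative to the heavy chain H2-K1 in 3 of 4 comparisons, and the day 4 comparison did not pass (factor 0.739, exact permutation test, adjusted p 0.417). Calr/H2-K1 was 3.26 to 3.36 in the cultures and 0.341 to 0.517 in isotype control tumors at day 8, a factor of 0.130. With PD-1 Ab at day 8 it was 0.263 to 0.303, below all controls, a factor of 0.657 (exact permutation test, 2-sided, p 0.00794, adjusted p 0.0318). In PD-1cKO tumors it ran from 0.0808 to 0.227 (median 0.157). All 10 lay below all 10 WT tumors at 0.236 to 0.458 (median 0.293). The factor was 0.493 (permutation test, p 2e-05, adjusted p 0.00048). The run of sample identifiers largely follows genotype in this comparison and was not part of the ratio tests.

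Tap1 differed more than Tap2 and Tapbp from culture to tumor and with PD-1 Ab at day 8. Tap2/Tap1 was 1.70 to 1.94 in the cultures and 0.489 to 0.522 in isotype control tumors at day 8, and 0.409 to 0.449 with PD-1 Ab. The last step was a factor of 0.860 with complete separation (exact permutation test, p 0.00794, adjusted p 0.0318). Tapbp/Tap1 was 8.85 to 9.40 in the cultures, 1.63 to 2.19 in isotype control tumors at day 8 and 1.41 to 1.51 with PD-1 Ab, the last step being a factor of 0.746 with the same p-values. At day 4 Tapbp/Tap1 was 1.44 to 1.62 with PD-1 Ab and 1.61 to 2.46 with isotype control, a factor of 0.783 (exact permutation test, p 0.0159, adjusted p 0.0390). This day 4 call was lost in 12 of the 23 cases in which a sample was left out, and also with medians or the replicate block. The 23 include day 8 tumors and cultures, which bear on this call only through the shared adjustment of p-values. In PD-1cKO against WT tumors neither ratio passed (factors 1.02 and 1.03, permutation test, adjusted p 0.825 and 0.840).

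Nlrc5/H2-K1 was 0.0202 to 0.0314 with PD-1 Ab at day 8 and 0.0113 to 0.0190 with isotype control, with complete separation and a factor of 1.81 (exact permutation test, p 0.00794, adjusted p 0.0318). Isotype control tumors at day 8 did not pass against the cultures in this ratio (factor 1.28, exact permutation test, adjusted p 0.330). B2m/H2-K1 did not pass with PD-1 Ab at day 8 (1.51 to 1.74 against 1.43 to 1.87, adjusted p 0.946 by the exact permutation test). In PD-1cKO tumors it was 0.293 to 0.721 (median 0.432) against 0.512 to 0.983 in WT tumors (median 0.685), with 7 of 10 below every WT tumor. The factor was 0.633 (permutation test, p 0.00038, adjusted p 0.00456), again without the run of identifiers. In the last run PD-1cKO replicate 9 had 1123 FPKM of B2m and 1559 of H2-K1, against 1034 and 1574 in the WT tumor. Its ratio was therefore not lower there, while replicate 10, at 691.9 and 2360, had a lower one. The 4 ratios that passed between isotype control tumors and cultures, B2m, Calr over H2-K1 and Tap2, Tapbp over Tap1, all had p 0.0179 and adjusted p 0.0390 in the exact permutation test, the smallest p that 5 against 3 allows. For 5 against 5 it is 0.00794. B2m/H2-K1 in that comparison was a factor of 0.717.

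**Figure D3:**
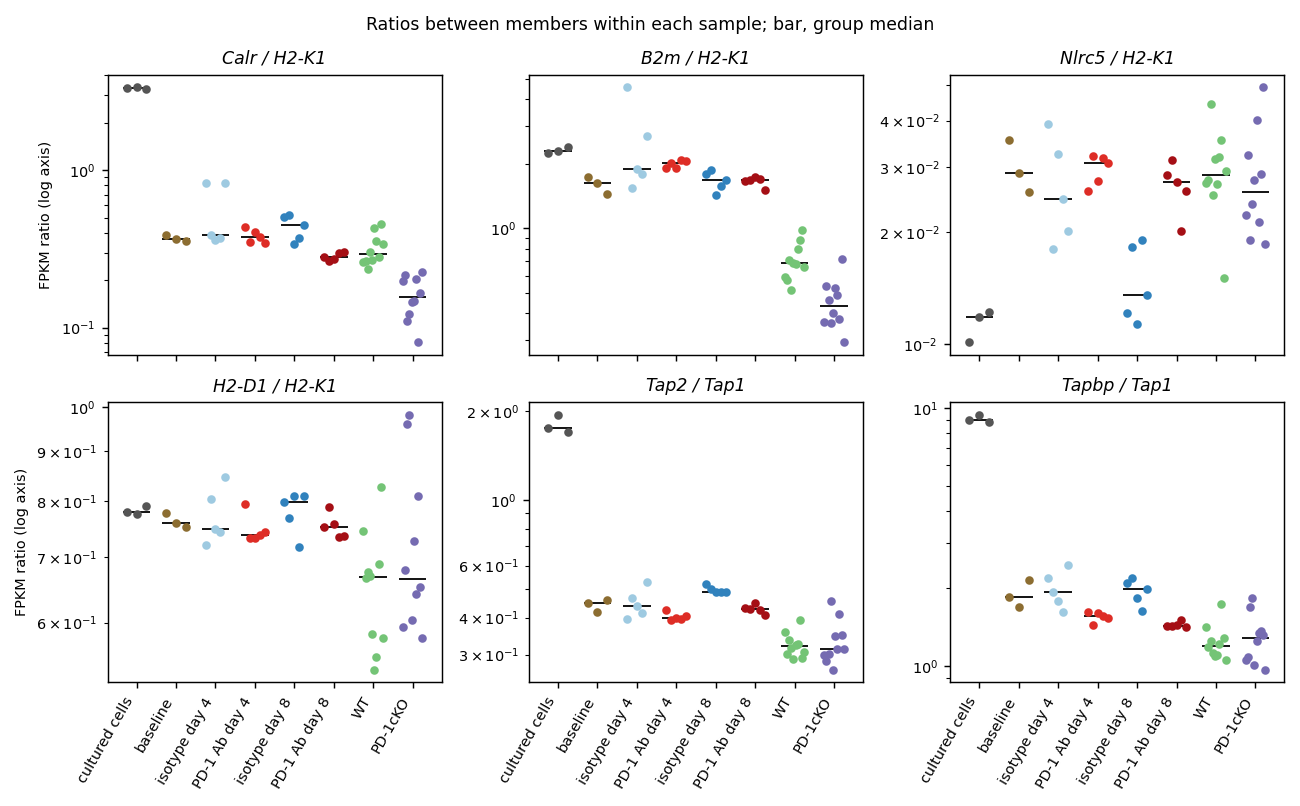
Ratios (6) of FPKM between members in every sample (log axes), with group medians as bars. H2-D1/H2-K1 has group medians of 0.666 to 0.798 and runs from 0.5785 to 0.9817 in single PD-1cKO tumors. Calr/H2-K1 is 3.26 to 3.36 in culture and 0.0808 to 0.227 in PD-1cKO tumors.

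Levels across the groups. For H2-K1 the order of means was PD-1 Ab day 8 (2227), PD-1cKO (1940), PD-1 Ab day 4 (1724), isotype control day 8 (1700), baseline (1639), WT (1457), isotype control day 4 (1180) and cultures (186) in FPKM. Each tumor group overlapped the next, and only the cultures lay apart. For Nlrc5 the order ran from PD-1 Ab day 8 (58.9) through PD-1cKO (52.5), PD-1 Ab day 4 (51.2), baseline (48.7), WT (42.98) and isotype control day 4 (29.5) to isotype control day 8 (24.8) and the cultures (2.01). Neighbors overlapped in each step but the last. These orders are of deposited FPKM and changed with median-of-ratios scaling, under which PD-1cKO was highest in both genes. For H2-K1 the scaled means were 2458 in PD-1cKO, 1895 with PD-1 Ab day 8, 1541 in WT and 1472 with PD-1 Ab day 4. For Nlrc5 they were 65.1 in PD-1cKO, 50.2 with PD-1 Ab day 8, 45.2 in WT and 43.7 with PD-1 Ab day 4. Erap1 ran in another order, highest with PD-1 Ab day 4 (93.7) and baseline (87.1) and lowest in PD-1cKO (30.0), below the cultures (42.1), in deposited FPKM. Scaled, the cultures were lowest (32.8 against 36.5 in PD-1cKO). B2m stood apart between the experiments. It was at 578.8 to 1265 FPKM in all 20 tumors of the second and at 1451 to 4179 in all 23 tumors of the first, and B2m/H2-K1 was at most 0.983 in the former and at least 1.43 in the latter. Experiment, time and library composition cannot be told apart here.

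Members among themselves. Over the 43 tumors, as deviations from group means after median-of-ratios scaling, Tap1 and Tap2 had a Pearson r of 0.91, Tap2 and Tapbp 0.84, H2-K1 and H2-D1 0.83 and Tap1 and Tapbp 0.81. The 6 pairs among H2-K1, Tap1, Tap2 and Tapbp ran from 0.74 to 0.91. B2m ran from -0.05 to 0.25 with the other 8, Erap1 from -0.20 to 0.26 and Nlrc5 from -0.34 with Calr to 0.40 with Tap1 and Tap2. These are descriptions over tumors that share libraries and scaling.

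**Figure D4:**
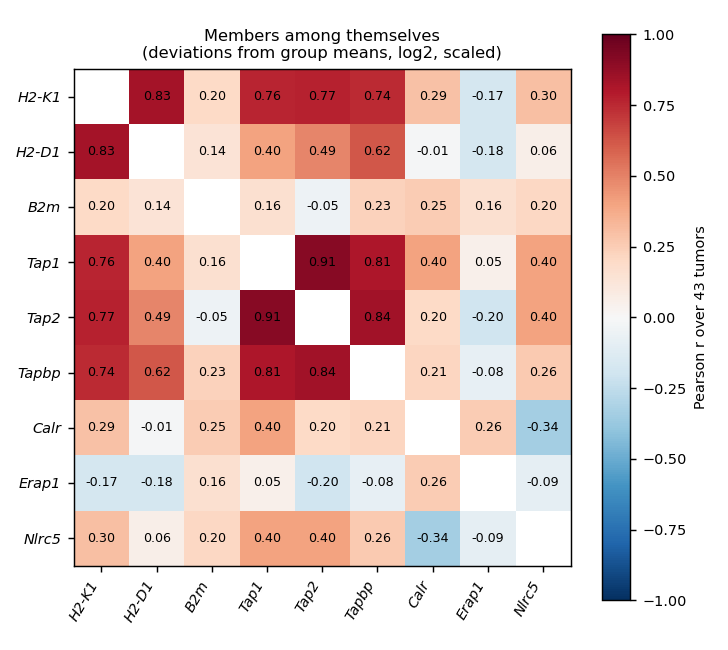
Pearson r between members over 43 tumors, from log2 values as deviations from group means after scaling. The block of H2-K1, Tap1, Tap2 and Tapbp holds 0.74 to 0.91, and the rows of B2m (-0.05 to 0.25) and Erap1 (-0.20 to 0.26) stay near 0.

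Among 13194 other genes, the most like Tap1 were the immunoproteasome subunits Psmb8 (r 0.92), Psmb10 (0.86) and Psmb9 (0.85). The most like H2-K1 were H2-M3 (0.85), Gsdmd (0.82) and Aamp (0.80), and the most like H2-D1 were H2-T23 (0.84), Tex264 (0.83) and Grn (0.83). For Nlrc5 they included 9330175E14Rik (0.81) and Gbp8 (0.74), and for B2m they were Ube2l6 (0.78), Snx3 (0.69) and Rnf181 (0.69). For Tap2 they were Parp10 (0.86), Il17rc (0.84) and Klc1 (0.82), and for Tapbp Gnl1 (0.82), Tnk2 (0.81) and Dda1 (0.81). For Calr they were Arpin, Sec13 and Eif4e2 (0.93, 0.93 and 0.92), and for Erap1 Cast (0.87), Grem1 (0.82) and Nup153 (0.80). Cast overlaps Erap1 by 834 bases, 9330175E14Rik overlaps Nlrc5 by 748 and Psmb9 overlaps Tap1 by 212, each on the other strand. These pairs share locus.

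Members with Ifng. Within the 10 PD-1cKO and the 10 WT tumors, each member was set against Ifng, 18 relations in all, with 100000-resample permutation tests. None passed at an adjusted p under 0.05. Nlrc5 had r 0.78 and rho 0.78 in PD-1cKO tumors (p 0.00764, adjusted p 0.102, and 0.0105 with adjusted 0.113 for rho), and r was 0.65 without the 2 tumors farthest from the median of Ifng. In WT tumors it had r 0.70 and rho 0.73 (adjusted p 0.260 and 0.113), and 0.43 without those 2. The heavy chains had the other sign in PD-1cKO tumors, with r -0.72 and rho -0.70 for H2-D1 (adjusted p 0.102 and 0.113) and r -0.69 and rho -0.65 for H2-K1 (adjusted p 0.176 and 0.145). For the other 14 relations r ran from -0.54 to 0.57 and rho from -0.70 to 0.72. The ends of rho were H2-D1 (r -0.12) and Tap2, both in WT tumors, each with adjusted p 0.113 by permutation.

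Other genes of the pathway. Lists of 42 further genes, all of them tested, were followed in the same comparisons. With PD-1 Ab at day 8, 5 were higher and 0 lower, where 6.69% of all tested genes were higher and 1.56% lower. Of 14 transcription factors 4 were higher. Among them Irf8 rose from 20.3 to 62.0 FPKM (1.58, SE 0.16, limma adjusted p 0.000806), Irf1 by 0.62 (SE 0.11, limma adjusted p 0.00349) and Irf2 by 0.47 (SE 0.09, limma adjusted p 0.00497). Of 10 folding and loading genes 1 was higher, Tapbpl, a tapasin-related peptide editor, from 16.5 to 29.6 FPKM (0.85, SE 0.13, limma adjusted p 0.00183), while the chaperone Hsp90b1 was at -0.32 (SE 0.18, limma adjusted p 0.209). Of 12 peptide supply genes and of 6 genes of class I turnover or repression none passed. Psmb9, an immunoproteasome subunit, was at 0.54 (SE 0.18, limma adjusted p 0.0495), Lnpep, an aminopeptidase, at 0.71 (SE 0.46, 0.277), Tmem127 at 0.47 (SE 0.12, 0.0198) and Susd6 at 0.44 (SE 0.18, 0.0858). At day 4 none of the 42 passed.

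In PD-1cKO tumors 1 of the 42 was higher and 6 lower, where 8.78% of all tested genes were higher and 12.6% lower. Irf8 rose from 25.7 to 55.2 FPKM (1.06, SE 0.14, limma adjusted p 0.000414). The folding genes Hsp90b1 (-0.97, SE 0.20, limma adjusted p 0.0019), Pdia6 (-0.87, SE 0.18, 0.0017) and Canx (-0.85, SE 0.21, 0.00466) fell, with 3 of 10 of that list lower. Their list's median was -0.57, or -0.41 after median-of-ratios scaling, against -0.20 and -0.04 for all genes. Canx (calnexin) is the membrane-bound relative of Calr, and the 2 others are general chaperones of the endoplasmic reticulum. Ezh2, a repressive histone methyltransferase, fell by 1.04 (SE 0.29, limma adjusted p 0.00837), Nfyb, a CCAAT-binding subunit, by 0.84 (SE 0.22, limma adjusted p 0.00607) and Tpp2, a cytosolic peptidase, by 0.62 (SE 0.16, limma adjusted p 0.00628). Psmb9 was at 0.03 (limma adjusted p 0.887). Nrd1 was at -0.72 (limma adjusted p 0.0218), Blmh at -0.69 (0.0119) and March9 at -0.31 (0.0931).

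Between isotype control tumors at day 8 and the cultures, 14 of the 42 were higher and 7 lower, where 20.2% of all tested genes were higher and 16.8% lower. The immunoproteasome subunits Psmb9 (4.39, SE 0.23, limma adjusted p 3.62e-07), Psmb8 (2.66, SE 0.16) and Psmb10 (1.91, SE 0.23) rose, as did the proteasome activator subunits Psme1 (1.83) and Psme2 (1.38), for 6 of 12 peptide supply genes in all. Psmb9 went from 4.68 to 103.6 FPKM. It overlaps Tap1 on the opposite strand by 212 bases. Irf8 rose by 4.66 and Irf1 by 1.91, among 6 of 14 transcription factors. Of the folding genes Tapbpl rose by 1.93, Canx fell by 0.53 and Pdia3, the disulfide isomerase of the loading complex, was at 0.01 (limma adjusted p 0.938).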

How the data were processed

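The expression table holds FPKM (fragments scaled to transcript length and library size) for 48795 Ensembl genes in 46 samples, as deposited by the authors. They made it from stranded, ribosome-depleted total RNA libraries read as 50-base pairs and aligned to the mouse B38 genome with the Omicsoft aligner, allowing at most 2 mismatches. Whether counting used strand is not given in the sources used here. The authors tested read counts with DESeq2, and counts were not used here. FPKM keeps no depth, so the counting error of each value is unknown. No source says that the 3 cultures were separate, so their p-values may measure technical spread.

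Values were tested as log2(FPKM + 0.1) in limma 3.58.1 (R 4.3.3) with trended variances, over genes whose mean reached 0.5 FPKM in 1 or both groups, with Benjamini-Hochberg adjustment over all tested genes. A gene passed at an adjusted p under 0.01 and at least 1.2-fold. The limma fits were also run on simulated data, and that outcome is not given here. Ratios were compared by 2-sided exact permutation tests, with 100000 resamples for 10 against 10 (SciPy 1.17.1, Python 3.11.15), and correlations with Ifng by permutation. Alternatives were another pseudocount, filter, scaling or weighting, 1 fit of all samples, a replicate block, the run of identifiers and leaving out each sample. Samples with the same replicate number correlated over 0.1 in 1 of 5, 0 of 5 and 1 of 10 pairs at day 4, at day 8 and in PD-1cKO, so the numbers were not taken to pair them. All 9 members, Pdcd1 and Ifng were named, with the 3 genes most like each member (of those at a mean of at least 1 FPKM over the tumors) and, of each pathway list, the 2 genes with the largest absolute log2 difference with PD-1 Ab at day 8 and the 2 in PD-1cKO. Other pathway genes named in the report were chosen after their values were seen, and 1 gene that the rule names is not reported here. Members and lists were chosen with earlier results of these data known. Promoters came from RefSeq on GRCm38.p6.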

Additional observations from a re-analysis of the deposited data

Results flagged for a closer look

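In 5 of 54 groups of member values 1 tumor stood far from the others by Dixon's ratio, and chance alone gives about 1 in 20. PD-1 Ab day 8 replicate 4 was highest in 3 of them, with H2-K1 at 2450 FPKM (next 2223), Tap1 at 219.1 (next 194.4) and Tapbp at 330.9 (next 281.4). H2-D1 was at 2328 FPKM in PD-1cKO replicate 3 (next 1579). Tap2 was at 36.54 FPKM in WT replicate 9, the lowest (next 51.86). Without PD-1 Ab day 8 replicate 4, Tap1 was at 0.78 with a limma adjusted p of 0.0114.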

How the results depend on the processing

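With PD-1 Ab at day 8, 2 members passed; 1 did with no filter, with upper-quartile scaling, with all 46 samples in 1 fit or with the replicate block, 7 with array weights, and 1 to 3 when a sample was left out. Over all genes the count of 1243 became 578 with no filter, 342 with the replicate block, 5115 with array weights and 421 to 2571 when a sample was left out. In PD-1cKO tumors 2 members passed; 1 did with no filter or the replicate block, 4 with upper-quartile scaling, 0 with the run of identifiers, and 1 to 3 when a sample was left out. With all 46 samples in 1 fit 2 passed as well, but H2-D1 lost its call (adjusted p 0.0152) and Calr gained one (adjusted p 0.00326). There the genes went from 3217 to 1892 with no filter, 1883 with the block, 0 with the run and 1965 to 4866 when a sample was left out, and Tap1 turned to -0.13 and Tapbp to -0.016 with the run. For the PD-1 Ab day 8 minus PD-1cKO response, 1 member passed with array weights (Nlrc5 at 1.19, limma adjusted p 0.0011), and the 16 genes became 1 with upper-quartile scaling or the block, 43 with 1 FPKM added and 938 with array weights. For day 8 minus day 4, array weights gave 1048 genes in place of 0. Day 4 gave 0 members in every alternative, though 39 genes passed with array weights, 16 with all 46 samples and 14 without isotype control replicate 1. The 11 ratios became 2 with medians, 2 with the replicate block and 5 to 12 when a sample was left out. A block with 3 or 5 pairs, and 5 against 2, cannot pass. For 4 against 3 the smallest possible p is larger than for 5 against 3. Each of the 4 ratios that passed against the cultures lost its call in 8 cases. The cause of these changes was not tested.

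Directions turned as follows. Calr at baseline was 0.0055 with median-of-ratios scaling and -0.052 to 0.0047 when a sample was left out, and Erap1 with PD-1 Ab at day 8 was -0.20 to 0.072. In the PD-1 Ab day 8 minus PD-1cKO response, H2-K1 was -0.20 and Tapbp -0.083 with median-of-ratios scaling, -0.25 and -0.14 with upper-quartile scaling, and H2-K1 -0.065 to 0.13 when a sample was left out. In day 8 minus day 4, B2m was 0.12 and Tap1 0.028 with median-of-ratios and B2m 0.050 with upper-quartile scaling. With array weights H2-K1 was 0.27, H2-D1 0.28, B2m 0.16, Tap1 0.50, Tap2 0.44 and Tapbp 0.28. When a sample was left out they were -0.54 to 0.060, -0.54 to 0.080, -0.26 to 0.010, -0.46 to 0.21, -0.50 to 0.19 and -0.47 to 0.11, the upper ends without isotype control day 4 replicate 1. On the log2 scale Nlrc5/H2-K1 of isotype control tumors over cultures was -0.096 with 1 FPKM added. With medians, B2m/H2-K1 at day 4 was 0.095, H2-D1/H2-K1 -0.0052 and Tap2/Tap1 -0.034 in PD-1cKO, and H2-D1/H2-K1 over cultures 0.034 (0.017 with the replicate block). When a sample was left out B2m/H2-K1 was -0.35 to 0.043 at day 4 and -0.060 to 0.036 at day 8, and H2-D1/H2-K1 over cultures -0.019 to 0.025. With Ifng, r was -0.38 and -0.40 for H2-K1 in WT, -0.18 and -0.18 for B2m in WT and -0.24 and -0.24 for B2m in PD-1cKO with median-of-ratios and upper-quartile scaling, and for Erap1 in PD-1cKO 0.0049 with 1 FPKM added and rho 0.055.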
